A study of Mus musculus with 4 samples.

Results

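The mTEChi, epithelial cells of the thymic medulla that carry much MHC class II, transcribe many genes that otherwise belong to single peripheral tissues, and the nuclear protein Aire is required for much of this transcription. The 9 genes described here encode the resistin-like proteins Retnla, Retnlb, Retnlg and Retn and the chitinase-like proteins Chia1, Chit1, Chil1, Chil3 and Chil4. They were listed by name, and the list was drawn up because Retnla was among the genes most reduced in the absence of Aire. The levels in both genotypes were thus known when the genes were chosen and are given as a description. They have 10 RefSeq IDs among the 30794 counted, Retn being the gene with more than 1, and are 9 of 22999 genes with a symbol.

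RNA-seq was performed on polyadenylated RNA of mTEChi from 4-week-old mice, in 2 libraries labelled Aire-KO (genotype Aire-/-, Aire-deficient mice on the B6 background) and 2 labelled WT (B6 mice bought from a breeder). Each library came from the pooled thymi of 4 mice and was sorted as CD45-, Ly51- and I-A/E high, and the first experiment and its replicate gave 1 library of each genotype. No treatment is stated. The deletion is carried by every cell of the animal and not by mTEChi alone, and the source of the mice cannot be told apart from the genotype.

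Resistin-like proteins are small secreted proteins rich in cysteine. Retn (resistin) is a hormone of mouse white fat, Retnla (RELMα, also called FIZZ1) is a hallmark of macrophages activated by IL-4 and IL-13 through STAT6, Retnlb (RELMβ) is secreted by goblet cells of the gut, and Retnlg (RELMγ) is known from myeloid cells and the bone marrow. Chitinase-like proteins share the fold of glycoside hydrolase family 18. Chia1, the acidic chitinase of stomach, salivary gland and lung, and Chit1, the chitotriosidase known from human macrophages, cleave chitin, whereas Chil1 (YKL-40, BRP-39), Chil3 (Ym1) and Chil4 (Ym2) bind sugars without cleaving them.

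The split between enzymes and non-enzymes can be read in the coding sequence. In the stretch below, taken from the GENCODE vM1 transcripts of mm9, the capitals mark the codon of the catalytic glutamate in the enzymes and the codon aligned to it in the other proteins. It runs over coding bases 397 to 420 in Chia1, Chit1, Chil3 and Chil4 and 424 to 447 in Chil1.
Chia1: gatggactggacctggactggGAA
Chit1: gatggccttgaccttgactggGAG
Chil1: gatgggctggatctcgcctggCTC
Chil3: gatggcctcaacctggactggCAG
Chil4: gatggcctcaacctggactggCAG
GAA and GAG both encode glutamate, which CTC and CAG do not. Chil3 and Chil4 had the same 24 bases here, and over their whole coding sequences 95.3% of 1197 aligned bases were identical, against 63.3% to 77.0% for every other pair among the chitinase-like genes. The longest identical run of this pair was 136 bases, longer than the 50-bp reads. The next pair shows the 30 bases of coding sequence (493 to 522) that hold most differences between them, with the 8 differing bases in capitals.
Chil3: gcttttgaggaagaatcTGTGGAgaaAGac
Chil4: gcttttgaggaagaatcCACTTTgaaCCac
Of the 50-base windows of each of these transcripts, 18.46% occurred unchanged in the other one, so reads from those windows cannot be assigned, and how the authors treated reads with several matches is not given in the sources used here. The values of Chil3 and Chil4 are therefore uncertain, and they are also given summed. The other 7 genes shared none of their windows with a transcript of another protein-coding gene. Among the resistin-like genes the coding identity ran from 67.5% (Retn and Retnlg) to 84.2% (Retnla and Retnlg).

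Promoter sequences of RefSeq (GRCm38.p6, 250 bases before to 50 after the start) were matched for 8 of the 9 genes, all but Retnlb. The letters TTCNNNNGAA, the spacing of half-sites that STAT6 is known to prefer, were searched on both strands and stood in 2 of these 8, Retnla and Retnlg, and in 7.0% of 32851 promoters. In Retnla the match starts 145 bases before the transcription start (window chr16:48842454-48842483, plus strand) and in Retnlg 72 bases before it (window chr16:48872526-48872555, plus strand). The half-sites are in capitals in the windows below, in which 24 of 30 bases were identical.
Retnla: agaatcataaTTCacaaGAAattgctaaac
Retnlg: aatgtcataaTTCacagGAAattgctataa
With a spacer shorter by a base, TTCNNNGAA stood on either strand in 2 of the 8 (Chil3 and Chil4) and in 8.3% of all promoters. The letters TATAAA, read on the sense strand, stood between 50 and 11 bases before the start in 3 of the 8 genes (Retnla, Chia1 and Chil4) and in 2.4% of all promoters. The stretches from 45 to 16 bases before the start are given for these genes and for Chit1, which held no such match, with TATAAA in capitals (Retnla chr16:48842564-48842593, plus strand; Chia1 chr3:106113337-106113366, plus strand; Chil4 chr3:106219495-106219524, minus strand; Chit1 chr1:134111197-134111226, plus strand).
Retnla: agcaatcccatggcgTATAAAagcatctca
Chia1: gtTATAAAaagccatttgaggttctcctgg
Chil4: atggtctcagagtgTATAAAaagccagcag
Chit1: ctgtagtggtggcctttaagatccccctag
A match is a description of these letters and not of a binding site.

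The summed counts were 168899954 and 242862323 in the libraries labelled Aire-KO and 191404483 and 111077552 in those labelled WT. Levels are given as CPM, the counts scaled to a common library size after TMM normalization, and as RPKM, the CPM per kilobase of transcript, where genes are compared with each other. Aire itself had 200697 and 175884 counts in the libraries labelled Aire-KO, against 87229 and 36597 in those labelled WT. It was thus higher under the label of the knockout, and since the counts cover the whole gene and not the part deleted in the allele, they do not check the labels. Every direction below rests on them. Over all IDs 1495 were called lower and 69 higher in Aire-KO. The 10 mTEC markers were present in all libraries, with summed levels of 20840 and 24440 CPM (Aire-KO) and 11850 and 18170 CPM (WT). Most of each sum came from Cd74 and H2-Aa, so the sums do not measure mTEC content. Krt5, shown after its values were seen, had 212.6 and 1048 CPM (Aire-KO) and 536 and 1213 CPM (WT). Of the 10 markers 0 passed the test in either direction by edgeR. An unadjusted p under 0.05 was found for 1, and 1 (Aire, higher) passed by DESeq2. With the experiment as a block, 5 of the 10 mTEC markers were called higher in Aire-KO (Cd74, Cd80, Fezf2, Aire and Tnfrsf11a). The block called 2777 of all 26790 IDs tested higher, and DESeq2 called 565 of 29571 higher.

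Across the RefSeq IDs, edgeR's quasi-likelihood test called 5.58% of 26790 lower and 0.258% higher in Aire-KO at a Benjamini-Hochberg adjusted p under 0.05. All 9 genes passed the filter on low counts, and 3 of them (Retnla, Retnlb and Chit1) were called lower and 0 higher. Both libraries labelled Aire-KO were below both labelled WT in CPM for 7 of the 9, against 28.4% of the IDs tested. These shares describe genes picked from this contrast. With the experiment as a block, Retnlg and Chil1 were called as well, which made 5, while 4428 of all 26790 IDs were then called lower. The median log2 fold change of the 9 genes was -1.83, against 0.03 for all IDs tested. In bulk RNA, fewer cells that transcribe a gene and less RNA per cell cannot be told apart. No source says that the 2 experiments used separate litters or days. With 2 libraries a genotype, the standard errors rest on the spread between these libraries alone, which edgeR moderates with that of all IDs tested. Without the block they also hold the difference between the experiments.

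**Figure D1:**
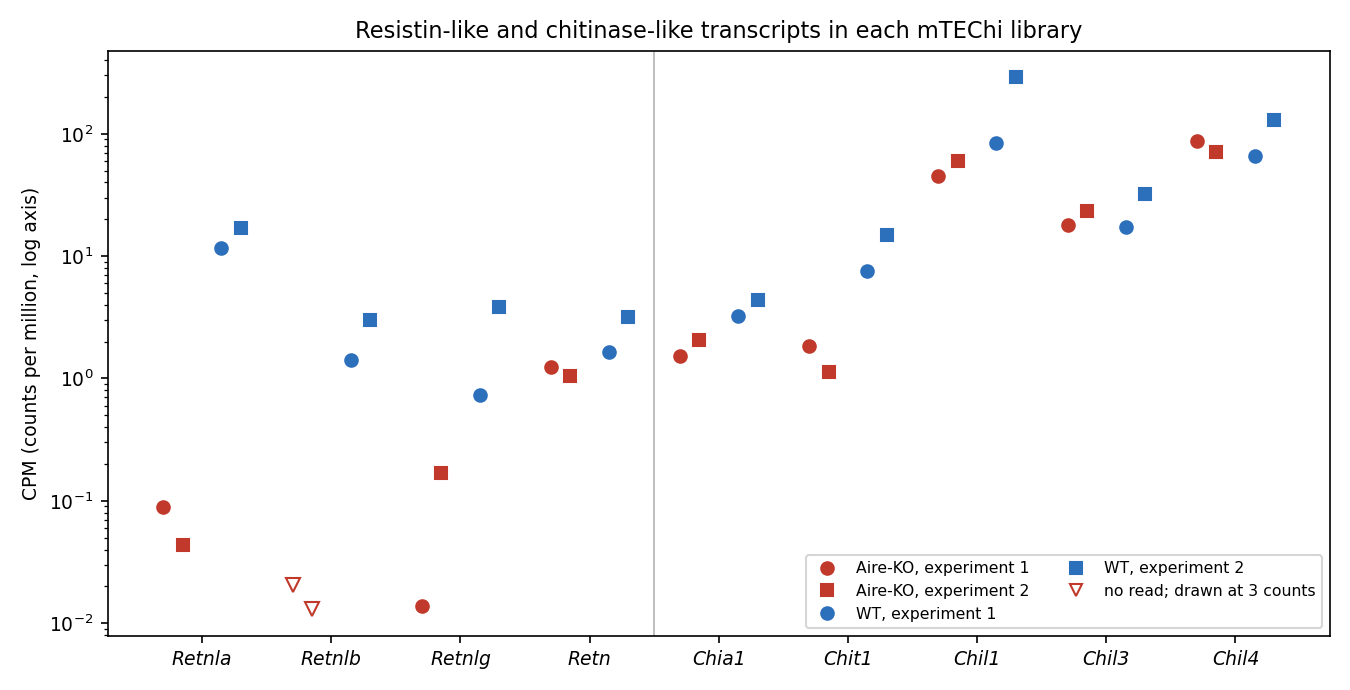
Level of each gene in each library, in CPM on a log axis, with the libraries labelled Aire-KO (red) left of those labelled WT (blue), circles for experiment 1 and squares for experiment 2. Open triangles stand at the level of 3 counts where a library had no read. Retnla lies at 0.0895 and 0.0435 CPM in Aire-KO and at 11.7 and 17.0 CPM in WT, whereas the 2 genotypes interleave for Chil3 and Chil4.

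Retnla (NM_020509, mm9 chromosome 16, 48842665 to 48844574, plus strand) had 13 and 10 counts in the libraries labelled Aire-KO, against 2569 and 2021 in those labelled WT. In CPM these were 0.0895 and 0.0435 (Aire-KO), against 11.7 and 17.0 (WT). The 2 genotypes were far apart, and the libraries within a genotype were close to each other by comparison. The fitted log2 fold change was -7.78 (SE 0.65, n = 2 a genotype), or 220-fold lower, and it ranked 424th from the lowest of 19767 genes tested. Within the experiments the reduction was 131-fold (95% counting interval 76.6 to 247) and 390-fold (211 to 814). Per length, Retnla stood at percentile 26.2 and 24.4 of all genes in Aire-KO and at percentile 87.8 and 89.99 in WT. A marker of alternatively activated macrophages was thus detected by no more than 13 reads in the libraries labelled Aire-KO and was among the abundant transcripts of those labelled WT.

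Retnlb (NM_023881, mm9 chromosome 16, 48816969 to 48819004, plus strand) had 0 and 0 counts in Aire-KO, against 309 and 358 in WT. WT levels were 1.41 and 3.004 CPM. The goblet cell gene was therefore not detected in Aire-KO at a floor of 3 counts, which is 0.0206 and 0.0131 CPM in these libraries. With Aire-KO set at this floor, the bound on the reduction was 68.4-fold in the first experiment and 230-fold in the replicate. That bound leaves out the counting error of WT. The lower limits of the exact counting intervals, which include it, were 55.3-fold and 186-fold. Retnlb had a much lower WT level than Retnla, at 44.6 and 58.8 as percentiles of RPKM.

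Retnlg (NM_181596, mm9 chromosome 16, 48872721 to 48874611, plus strand) had 2 and 39 counts in Aire-KO, against 162 and 456 in WT. In CPM these were 0.0138 and 0.170 (Aire-KO), against 0.740 and 3.83 (WT). The genotypes did not overlap, but the libraries of each genotype were far apart, the replicate experiment being the higher one in both. The log2 fold change was -4.57 (SE 1.31), and it ran from -7.29 without the Aire-KO library of the replicate to -2.92 without the WT library of the replicate. In the first experiment it was -5.75 with a counting interval of -8.81 to -3.87, which rests on 2 reads, and in the replicate -4.49 (-5.01 to -4.02). This gene of myeloid cells was thus low in both libraries labelled Aire-KO, at an uncertain ratio.

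Retn (NM_001204959, mm9 chromosome 8, 3655770 to 3660110, plus strand), the founding member of the family, had 179 and 243 counts in Aire-KO, against 358 and 378 in WT. Its levels were 1.23 and 1.06 CPM in Aire-KO, against 1.64 and 3.17 CPM in WT. The lower of the WT values lay close to the higher of the Aire-KO values. The log2 fold change was -1.07 (SE 0.56), and within the experiments it was -0.41 and -1.59. The second RefSeq ID of Retn, NM_022984, has the same coding exons, and had 165 and 215 counts in Aire-KO and 334 and 290 in WT. Its last-exon part is longer (846 bp against 290 bp) but held fewer reads in every library, so it does not simply extend the shorter one. The adipose hormone thus stood apart from the 3 other resistin-like genes in the size of its difference, and its locus lies on another chromosome.

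Of the chitinases, Chit1 (NM_027979, mm9 chromosome 1, 136007819 to 136048117, plus strand) had 270 and 261 counts in Aire-KO, against 1656 and 1786 in WT. In CPM these were 1.86 and 1.14 (Aire-KO), against 7.56 and 15.0 (WT). The genotypes did not overlap, and the log2 fold change was -2.91 (SE 0.55), or 7.54-fold lower. In the first experiment it was 4.07-fold (3.58 to 4.65) and in the replicate 13.2-fold lower (11.6 to 15.1), and these counting intervals lay apart.

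Chia1 (NM_023186, mm9 chromosome 3, 105916147 to 105935038, plus strand), the chitinase of the stomach and airway, had 224 and 475 counts in Aire-KO, against 715 and 518 in WT. It had 1.54 and 2.07 CPM in Aire-KO, against 3.27 and 4.35 CPM in WT. The values of the genotypes were ordered but near each other, with a log2 fold change of -1.08 (SE 0.48). Of the 9 genes it had the closest values in the 2 experiments, -1.08 (counting interval -1.31 to -0.86) and -1.07 (-1.25 to -0.89).

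Chil1 (NM_007695, mm9 chromosome 1, 136078753 to 136086758, plus strand), a lectin of macrophages, neutrophils and epithelium, was abundant in both genotypes. It had 6609 and 13711 counts in Aire-KO, against 18404 and 34473 in WT, and 45.5 and 59.6 CPM in Aire-KO, against 84.1 and 289 CPM in WT. The 2 WT libraries differed more from each other than the lower of them did from Aire-KO. The log2 fold change was -1.83 (SE 0.62), with -0.89 and -2.28 in the experiments. It was -0.67 without the WT library of the replicate and -2.37, and then called, without that of the first experiment. Its percentiles per length were 89.4 and 91.9 in Aire-KO and 96.1 and 98.6 in WT.

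Chil4 (NM_145126, mm9 chromosome 3, 106004408 to 106022425, minus strand) had 12760 and 16275 counts in Aire-KO, against 14469 and 15381 in WT, and Chil3 (NM_009892, mm9 chromosome 3, minus strand) had 2611 and 5379 against 3823 and 3850. The annotated span of Chil3, 105950472 to 106022425, covers that of Chil4. In CPM, Chil4 had 87.8 and 70.8 (Aire-KO), against 66.1 and 129 (WT). Chil3 had 17.97 and 23.4 CPM (Aire-KO), against 17.5 and 32.3 CPM (WT). For both genes the WT library of the first experiment was the lowest of the 4 and that of the replicate the highest, so that the genotypes overlapped. Chil4 was higher in Aire-KO in the first experiment (log2 0.41, counting interval 0.38 to 0.44) and lower in the replicate (-0.87, -0.90 to -0.83), and Chil3 gave 0.04 (-0.03 to 0.11) and -0.47 (-0.53 to -0.41). The fitted values were -0.30 (SE 0.44) for Chil4 and -0.27 (SE 0.43) for Chil3, and both turned to a positive sign (0.25 for each) when the WT library of the replicate was left out. Summed over the pair, the levels were 105.8 and 94.2 CPM in Aire-KO, against 83.5 and 161 CPM in WT. The sum is free of how shared reads were assigned only if none was dropped or counted in both genes, which is not known. Per length, Chil4 stood between percentile 94.0 and 96.9 of all genes in the 4 libraries and Chil3 lower, at 75.4 and 81.5 in Aire-KO and 78.4 and 86.5 in WT.

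Per length, the order of the 9 genes was led by the same pair in all libraries but differed below it. In Aire-KO Chil4 was ahead of Chil1 (26.9 and 35.3 RPKM), and in WT Chil1 (49.8 and 171 RPKM) was ahead of Chil4. The resistin-like genes other than Retnla lay below 10 RPKM in every library.

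**Figure D2:**
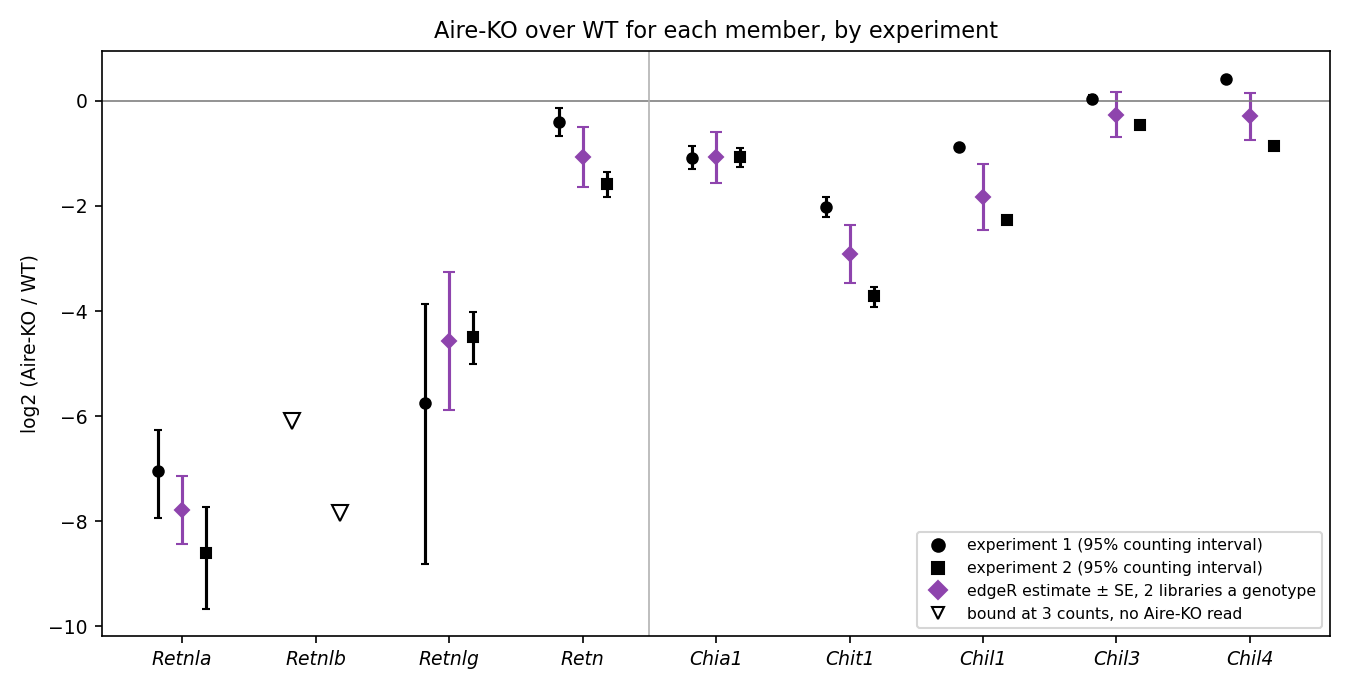
The log2 ratio of Aire-KO to WT for each gene, with experiment 1 (circles) and experiment 2 (squares) and their 95% counting intervals, and the edgeR estimate with its standard error (purple, 2 libraries a genotype). Open triangles are bounds at 3 counts for Retnlb. The largest reductions belong to Retnla, Retnlb and Retnlg, and Chil4 lies above 0 (0.41) in the first experiment and below it (-0.87) in the replicate.

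The size of the reduction differed between the experiments. For 6 of the 8 genes with reads in every library, all but Chia1 and Retnlg, the ratio was lower in the replicate. For 5 of these 6 the counting intervals of the 2 experiments lay apart, and for Retnla they met (-7.95 to -6.26 and -9.67 to -7.73). The WT library of the replicate had the highest level of the 4 for each of the 9 genes. It was also the library of the lowest depth. The shares of all IDs with a lower ratio in the replicate, or with their highest level in this library, were not counted. These patterns are therefore not shown to be particular to the 9 genes.

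Whether the transcripts differed in structure was asked from the parts of each transcript, counted separately as the 5′ end, the coding exons and the last exon with its 3′UTR. None of the 9 genes has a d3′UTR, the stretch beyond a proximal polyadenylation site, in the annotation the authors counted, which does not show that they lack such a site. Reads were counted only where they lay wholly inside a part, so the 5′ parts of Retnla (21 bp), Chil3 (43 bp), Chil4 (15 bp) and Chia1 (3 bp), all shorter than a read of 50 bp, held 0 reads in every library. Retnlb had no read in any part in Aire-KO and reads in all 3 parts in WT, with 75 and 54 in the 5′ part, 84 and 129 in the coding exons and 120 and 142 in the last exon. The 13 reads of Retnla in Aire-KO of the first experiment all lay in the coding exons, whereas 8 of the 10 of the replicate lay in the last exon. In WT, Retnla had 21.7 and 24.4 RPKM in the coding exons and 18.9 and 34.4 in the last exon. The share in the last exon was thus 0% (exact interval 0 to 24.7) and 80.0% (44.4 to 97.5) in Aire-KO, against 46.5% and 58.4% in WT. For Retnlg it was 76.9% of 39 reads (60.7 to 88.9) in the Aire-KO library of the replicate, against 58.6% and 62.4% in WT, with 2 reads in the other library.

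The share of reads in the last exon was not used to choose the genes and was tested by edgeR as an interaction of region and genotype. How well it can be measured in Aire-KO still depends on the level there, and Retnla and Retnlg reached the minimum of 10 counts a region through WT. Of 20716 RefSeq IDs, 0.0193% were called in either direction, and 946 had an unadjusted p under 0.05. Of the 8 genes with reads in both genotypes 0 were called, and 0 had an unadjusted p under 0.05, but for Retnla and Retnlg the few Aire-KO reads make the test uninformative. For Chil1, with a last-exon share of 52.7% and 55.9% in Aire-KO, against 53.4% and 50.4% in WT, the log2 difference in usage was 0.14 (SE 0.20). For Chil4 it was -0.20 (SE 0.21), for Chit1 -0.26 (SE 0.33) and for Chia1 -0.20 (SE 0.40). For Chil3 it was -0.03 (SE 0.31) and changed sign when single libraries were left out. Differences of that size could not be told from 0 with 2 libraries a genotype. For Retnla the value was -0.998 (SE 1.19), and it was decided by single libraries. Without the Aire-KO library of the replicate it was -6.76 (adjusted p by edgeR 0.0383), and without that of the first experiment 1.77. Its 13 and 10 reads do not support a statement on its 3′ end.

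**Figure D3:**
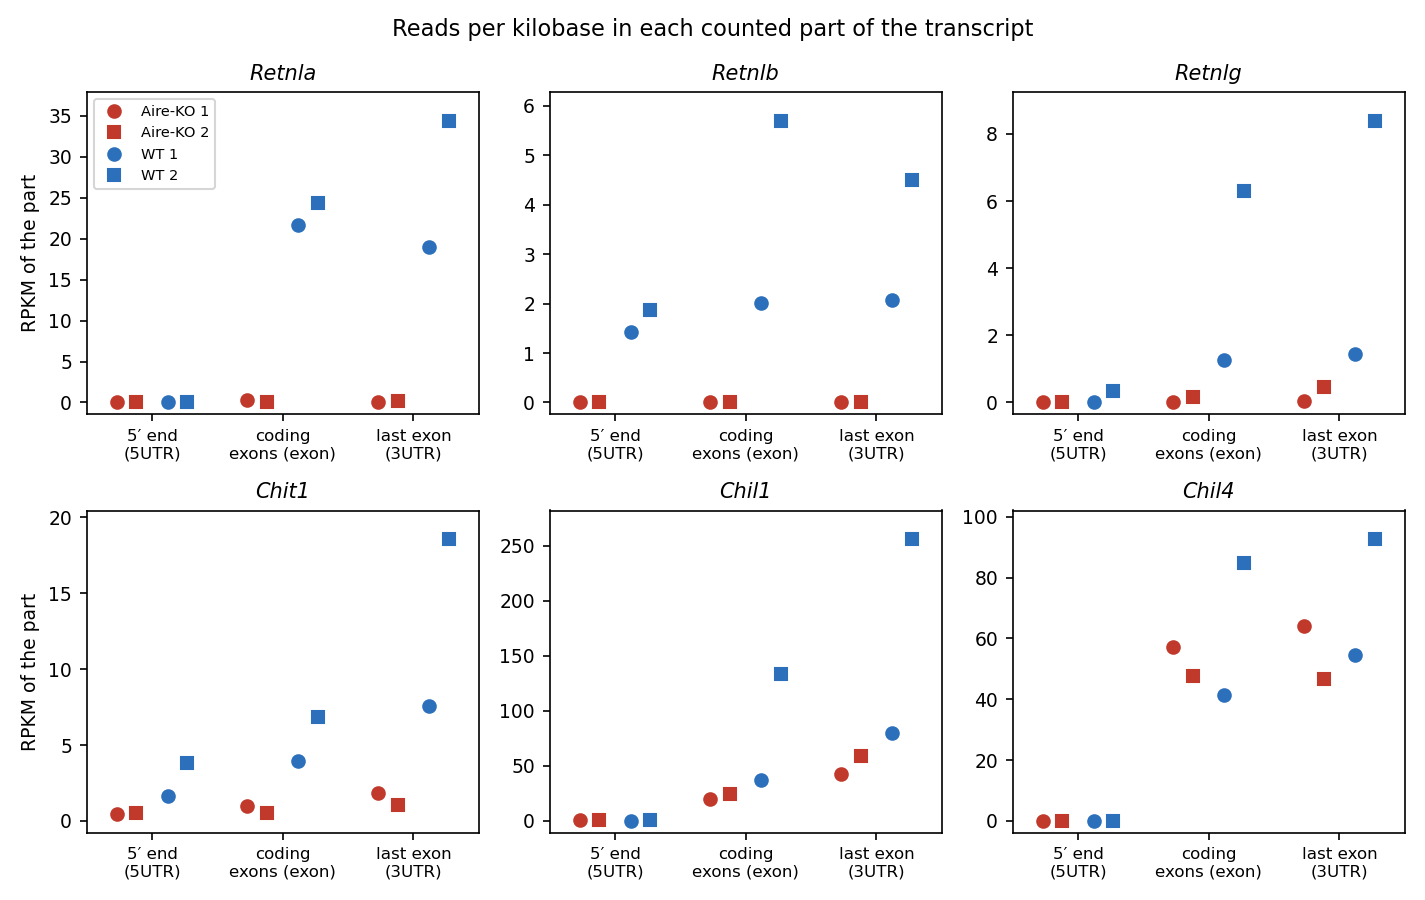
RPKM in the counted parts of 6 transcripts, with the libraries labelled Aire-KO (red) left of those labelled WT (blue), circles for experiment 1 and squares for experiment 2, on linear axes of different height. Retnlb has no Aire-KO read in any part, and Chil1 rises towards the last exon in both genotypes, to 42.3 and 59.4 RPKM in Aire-KO and to 79.5 and 256 RPKM in WT.

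The genes lie in 4 loci, 3 of which hold several of them, and the 3 nearest genes on each side, in the gene order of RefSeq (GRCm38.p6), were compared. Of these 24 neighbours 0 were called lower and 0 higher by edgeR, against 5.58% and 0.258% of all IDs, while 7 had an unadjusted p under 0.05 and DESeq2 called 3 lower. With the experiment as a block, 5 were called lower and 1 higher. Of all IDs, the block called 4428 lower and 2777 higher of 26790, and DESeq2 called 3528 lower of 29571. Their median log2 fold change was -0.33, with a range from -3.44 to 1.14. On chromosome 16, Retnlb, Retnla and Retnlg stand side by side. Trat1, a T cell adaptor gene next to Retnlb, had 12 and 5 counts in Aire-KO, against 129 and 62 in WT (log2 -3.44, SE 0.97), and it is named as the lowest value after the values were seen. On the other side, Dzip3 gave -0.10 (SE 0.84) and Cip2a -0.34 (SE 0.72). On chromosome 1, Chit1 and Chil1 lie between Btg2 (-0.56, SE 0.37) and Mybph (-1.02, SE 0.51). On chromosome 3, Chia1, Chil3 and Chil4 lie between Pifo (-0.17, SE 0.57) and Chil6 (0.27, SE 0.69). These nearest neighbours were chosen for their place. Beside Retn on chromosome 8, Mcemp1, a myeloid membrane protein gene also named after its values were seen, had 3 and 30 counts in Aire-KO, against 110 and 111 in WT (log2 -3.19, SE 1.06). The 5 neighbours with the lowest mean WT levels were also the 5 with the lowest ratios.

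**Figure D4:**
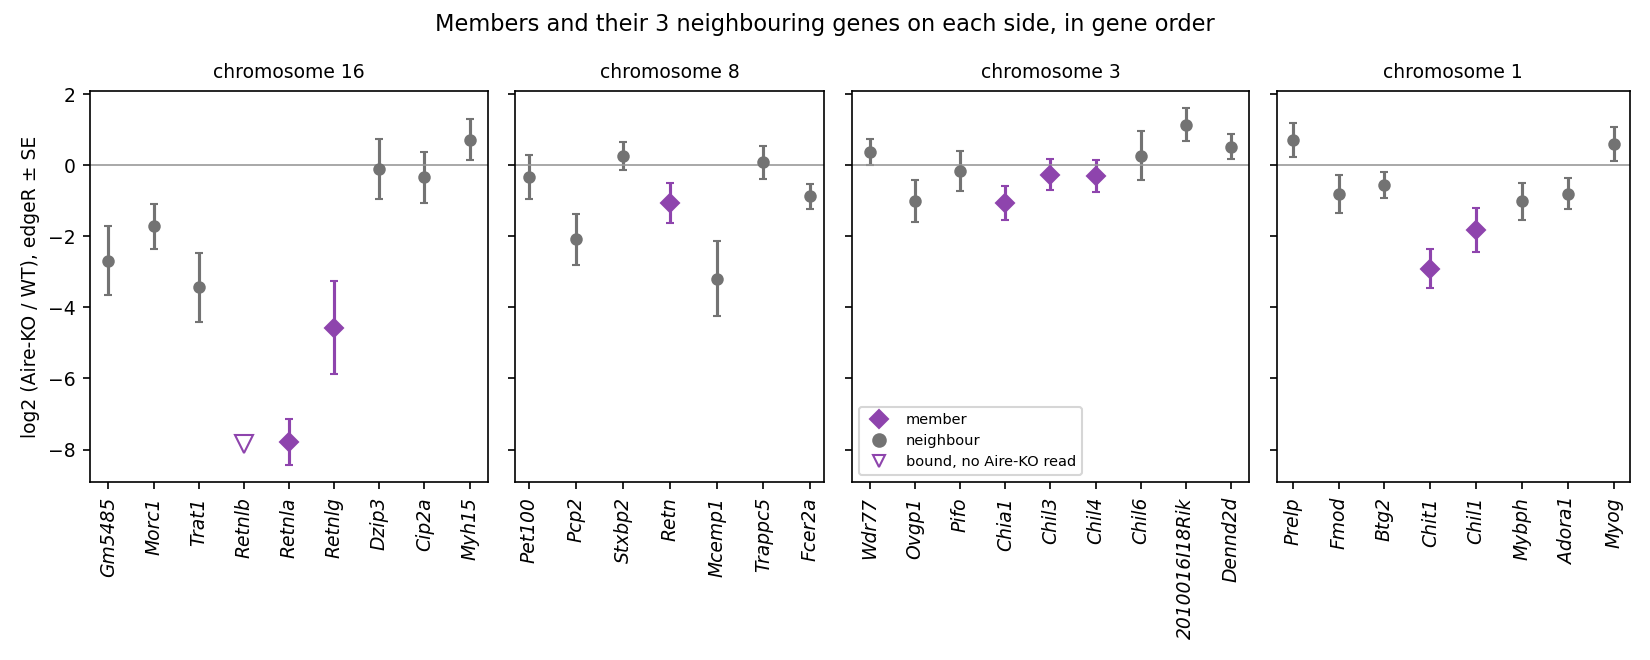
The log2 ratio of Aire-KO to WT (edgeR estimate with standard error) for the 9 genes (purple diamonds) and their neighbours (grey), in gene order along 4 chromosomes and not to scale in distance. The open triangle is the bound for Retnlb in the replicate. On chromosome 16 Retnla lies at -7.78, while Dzip3, the next gene after Retnlg, lies at -0.10.

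The genes around these proteins were counted in 3 lists. Of 4 relatives in the table (Ovgp1, Chid1, Chil6 and Ctbs, which belong to the same fold family), 0 were called by edgeR, against 5.58% of all IDs lower and 0.258% higher, 0 had an unadjusted p under 0.05 and DESeq2 called 0. The 9 receptors and binding partners include Cap1 and Tlr4, which are described to bind human resistin, Il13ra2, which binds Chil1, and Tmem219. Of these 9, 0 were called by edgeR, 4 had an unadjusted p under 0.05, and DESeq2 called 1 lower and 2 higher. With the block 2 of the 9 were called lower and 2 higher. Of all IDs, the block called 4428 lower and 2777 higher of 26790, and DESeq2 3528 and 565 of 29571. Cap1, shown after its values were seen, had 381 and 354 CPM in Aire-KO, against 305 and 338 CPM in WT.

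Of 26 genes of type 2 responses tested, 5 were called lower and 0 higher, against 5.58% and 0.258% of all IDs. They were Mgl2 and Cd163, membrane lectin and scavenger receptor of macrophages, Ccl24, a chemokine of eosinophils, Tslp, an epithelial cytokine, and the interleukin gene Il5. Mgl2 had 31 and 26 counts in Aire-KO, against 686 and 497 in WT (log2 -4.49, SE 0.64, adjusted p by edgeR 0.0224). Ccl24 had 4 and 10 counts in Aire-KO, against 213 and 117 in WT (log2 -4.73, SE 0.80, adjusted p by edgeR 0.0309). Both were low in every Aire-KO library. Tslp had 1.16 and 0.744 CPM in Aire-KO, against 5.25 and 6.67 CPM in WT (log2 -2.65, SE 0.51, adjusted p by edgeR 0.0387). Cd163 had 7 and 0 counts in Aire-KO, against 667 and 212 in WT (adjusted p by edgeR 0.0428), and Il5 had 342 and 300 counts in Aire-KO, against 1895 and 1124 in WT (log2 -2.31, SE 0.48, adjusted p by edgeR 0.0475).

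The cytokine genes Il4 and Il13 were read in the same list, and their bearing on Retnla was not tested. Il4 had 22.0 and 10.3 CPM in Aire-KO, against 3.39 and 3.92 CPM in WT, and Il13 had 316 and 249.9 CPM in Aire-KO, against 88.5 and 101 CPM in WT. Postn, which encodes the matrix protein periostin and had the highest log2 fold change of the list, had 171.8 and 67.4 CPM in Aire-KO, against 23.5 and 5.81 CPM in WT. These genes, and Il4ra, Stat6, Arg1 and Mrc1, were singled out after their values were seen. The log2 fold changes of Il4 and Il13 were 2.14 (SE 0.50, adjusted p by edgeR 0.0608) and 1.58 (SE 0.37, adjusted p 0.0603), which did not pass, and with the experiment as a block they passed (adjusted p by edgeR 0.000928 and 0.000307). For Postn the value was 3.03 (SE 0.80, adjusted p by edgeR 0.0805), and it passed with the block (adjusted p 3.27e-06). The transcripts of the signal chain, Il4ra and Stat6, had log2 fold changes of 0.65 (SE 0.35) and 0.35 (SE 0.36) and were not called in the fit without a block, and Il4ra had an adjusted p by edgeR of 0.0437 with it. Arg1 and Mrc1, further markers of alternatively activated macrophages, gave -1.19 (SE 0.42) and -0.20 (SE 0.57), of which Arg1 passed with the block (adjusted p by edgeR 0.0134). Over the 3 lists together 5 of 39 genes were called lower and 0 higher, against 5.58% and 0.258% of all IDs, with a median of -0.20. With the block 11 were called lower and 9 higher, against 4428 and 2777 of all 26790 IDs. DESeq2 called 7 and 5, against 3528 and 565 of 29571 IDs.

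**Figure D5:**
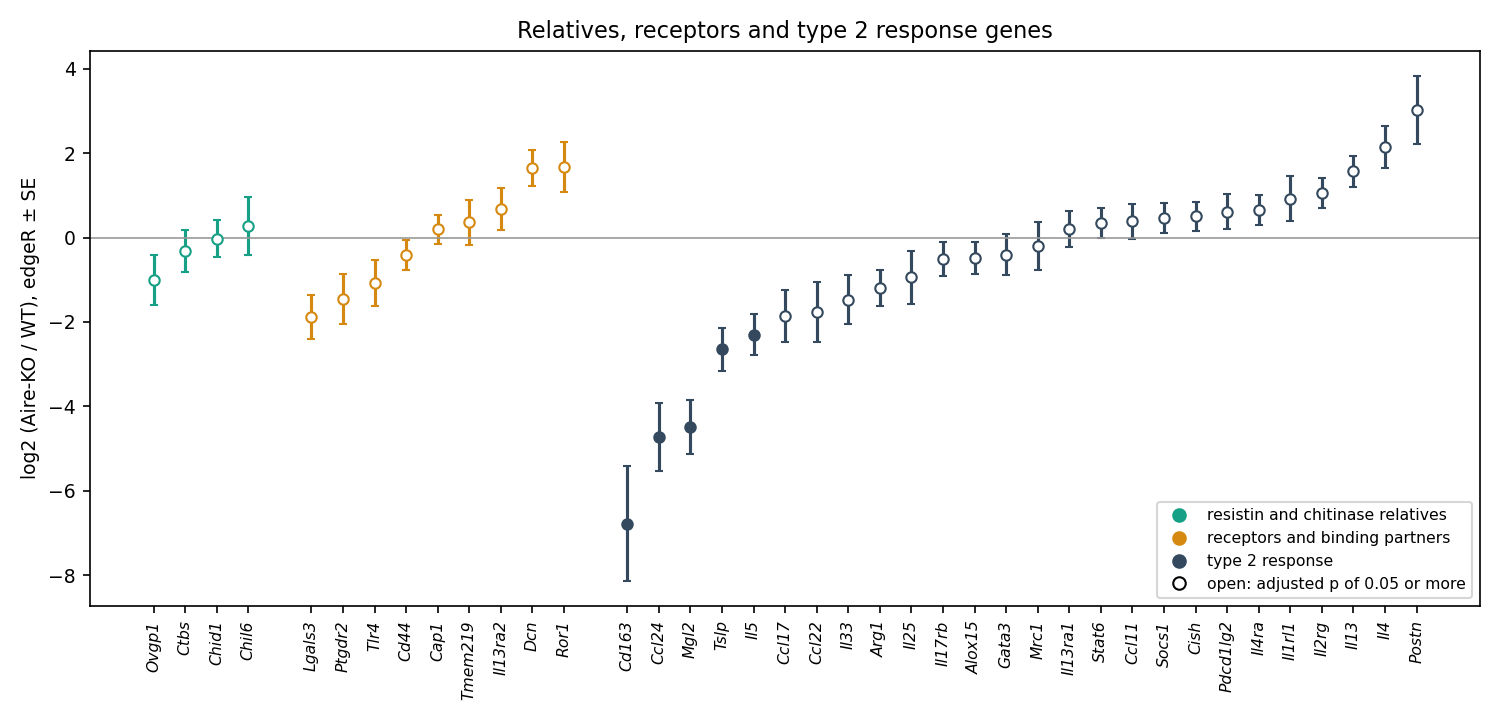
The log2 ratio of Aire-KO to WT (edgeR estimate with standard error, 2 libraries a genotype) of relatives, receptors and type 2 response genes, ordered within each list. Filled points passed an adjusted p of 0.05 and are the 5 lowest of the type 2 genes, from Cd163 to Il5 at -2.31, while Postn (3.03), Il4 (2.14) and Il13 (1.58) are open points at the upper end.

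Since these genes are known from other cells, markers of those cells were read in the same libraries. Their calls are to be set against 5.58% of all IDs called lower and 0.258% higher. Counts with the block are to be set against 4428 lower and 2777 higher of 26790 IDs, and those by DESeq2 against 3528 lower of 29571. Single markers are named for their level, after it was seen. Of 12 granulocyte genes 8 were called lower in Aire-KO and 0 higher (11 and 1 with the block), and Elane had no read in Aire-KO. Their summed levels were 111.7 and 188.5 CPM (Aire-KO) and 254.5 and 549.5 CPM (WT). Most of the Aire-KO sum came from Prg2, at 87.8 and 171.4 CPM, against 40.6 and 117 CPM in WT. Of 12 macrophage and dendritic cell genes 2 (Adgre1 and Itgam) were called lower, with summed levels of 381.4 and 384.2 CPM (Aire-KO) and 316.9 and 561.7 CPM (WT). Most of this sum came from Lyz2, at 325.8 and 345.1 CPM (Aire-KO) and 252.5 and 488.7 CPM (WT). Adgre1 had 0.502 and 0.983 CPM (Aire-KO) and 6.88 and 7.03 CPM (WT). The sort removed CD45+ cells, and Ptprc, which encodes CD45, had 4.18 and 1.41 CPM (Aire-KO) and 9.46 and 6.65 CPM (WT). Of 8 goblet cell genes 5 were called lower, of 7 adipocyte genes 2, of 8 gastric, salivary and airway genes 4 (7 with the block), and of 7 thymocyte genes 0 (3 had an unadjusted p under 0.05, DESeq2 called 1 lower and the block 4). The summed level of the goblet list was 9934 and 9041 CPM (Aire-KO) and 4233 and 6640 CPM (WT), nearly all of it from Fcgbp, and that of the gastric, salivary and airway list was 41.8 and 58.1 CPM (Aire-KO) and 245.5 and 582 CPM (WT). The adipocyte list, in which Plin1 had no read in Aire-KO, summed to 532.7 and 506.1 CPM (Aire-KO) and 303.9 and 706 CPM (WT). Nearly all of this was Fabp4, at 523 and 498 CPM (Aire-KO) and 287 and 674 CPM (WT). The thymocyte list summed to 32.3 and 37.4 CPM (Aire-KO) and 39.1 and 57.3 CPM (WT). Each sum thus follows its most abundant genes and does not measure a cell type. The part of such cells in the levels of the 9 genes was not tested.

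The genes with the pattern most like that of Retnla were found by the Euclidean distance of centred log2 CPM over the 4 libraries. They were Cst10 (0.20), Sohlh1 (0.22), H2-M1 (0.26), Lcn11 (0.28) and Defa24 (0.29). Cst10 had 2 and 0 counts in Aire-KO, against 588 and 472 in WT, and Sohlh1, a germ cell transcription factor gene, had 1 and 0 against 466 and 333. H2-M1 had 2 and 0 counts in Aire-KO, against 501 and 447 in WT, Lcn11 had 1 and 0 against 407 and 396, and Defa24, a defensin gene of Paneth cells, had 1 and 0 against 470 and 312. All 5 had fewer WT counts than Retnla and at most 2 in Aire-KO.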

How the data were processed

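Paired reads of 100 bp were cut by the authors to 50 bp and pooled as single-end reads. After the CASAVA filter they were aligned to the mm9 genome (Bowtie 1.0.0), and bedtools counted reads that fell completely within RefSeq exons. The libraries were not stranded. The deposited values are raw counts per RefSeq ID and per transcript part, with no normalization. Of 30794 IDs, 95.3% were matched to a symbol. CPM and RPKM were computed from the counts with TMM-scaled library sizes.

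Genotypes were compared over all 4 libraries with edgeR 4.0.16 (TMM, filterByExpr, quasi-likelihood test, genotype only, Benjamini-Hochberg adjustment over all IDs, threshold 0.05). Usage needed 10 counts in each region. DESeq2 1.42.0, other scalings, no filter, 1 ID per gene, a replicate block and leaving out each library were alternatives. R 4.3.3, Python 3.11.15, Biopython 1.88 and matplotlib 3.10.9 were used. The tests were tested on simulated data.

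The experiment number pairs the libraries, since the authors speak of a replicate experiment. The deviations of same-numbered libraries correlated at 0.72 across 19767 genes. Members, lists and tests were chosen with earlier results of these data known. Named are all members, the called genes with the smallest p among relatives, receptors, type 2 genes and neighbours (up to 4, or all where 5 or fewer are counted) and the 5 genes nearest to Retnla (prior count 2). Other genes, single markers among them, are examples of a list or are marked as chosen after their values were seen or by their place. Intervals are 95% exact intervals and, like the floor of 3 counts, cover counting error alone. They take every read as independent, although both reads of a pair could be counted, so they may be too narrow. Cd68 and Ly6g, Chil5 and Ccl26 entered no test.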

Additional observations from a re-analysis of the deposited data

How the results depend on the processing

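Counts of called IDs depended on the setting. All IDs called lower numbered 1495, and 2470 with library sizes alone, 3528 by DESeq2, 4428 with the block and 1524 to 3664 when a library was left out. Those called higher numbered 69, and 565 by DESeq2, 143 without a filter, 2777 with the block and 66 to 521 with a library left out. Of the 9 genes, 3 were called lower, and 5 by DESeq2, 5 with the block and 3 to 5 with a library left out (5 without WT replicate 1). The relatives, receptors and type 2 genes called lower numbered 5, and 11 with the block and 5 to 8 with a library left out, and those called higher 0, and 5 by DESeq2, 2 without a filter, 9 with the block and 1 to 4 with a library left out. Neighbours called lower numbered 0, and 3 by DESeq2, 5 with the block and 0 to 2 with a library left out, and 1 was called higher with the block. In last-exon usage the block gave 147 IDs lower and 94 higher, and leaving out a library gave 0 to 139 lower, 0 to 94 higher and 0 to 1 of the 8 genes. The cause of these shifts was not tested. With a library left out, the log2 fold change of Chil3 ran from -0.55 to 0.25 and that of Chil4 from -0.63 to 0.25, both positive without WT replicate 2. In usage, Retn ran from -0.0073 (without WT replicate 1; -0.0072 without Aire-KO replicate 2) to 0.745, Retnla from -6.76 (without Aire-KO replicate 2) to 1.77 (without Aire-KO replicate 1), and Chil3 from -0.51 to 0.42 (without Aire-KO replicate 1; 0.15 without WT replicate 1). Retnla, Retnlb and Chit1 were called lower under every alternative that kept all 4 libraries, which is a description of genes picked from this contrast. Library sizes alone moved the median of all IDs to -0.26 and reversed none of the 9 genes. Where a library was left out, the lone library of its genotype was assumed to vary like the others. The depth limits Retnla, Retnlb and Retnlg in Aire-KO, which rest on 0 to 39 reads.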
